A study of Mus musculus with 8 samples.

Results

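The genes described here are 9 negative feedback genes of the ERK branch of MAPK signalling, taken as a list of names: Dusp1, Dusp2, Dusp4, Dusp5, Dusp6, Spry1, Spry2, Spred1 and Spred2. All 9 were found among the 47069 gene rows of the count files, by Ensembl ID through GENCODE mouse release M21. All 9 passed the filter on low counts, Dusp4 only through libraries of 12h and 24h. The cells were GFP-positive leukaemia cells sorted from leukaemic mice, with bone marrow as the tissue and C57BL/7 as the strain given in the labels. Cells at every time point, 0h included, carried the MLL-AF9 fusion oncogene and the TetO-Klf4 transgene, which puts the transcription factor KLF4 under doxycycline. Groups were 0h, 6h, 12h and 24h, with 2 libraries each. The starting event of the hours, the driver of the TetO promoter and whether replicates came from separate mice are not in the labels, so the p-values rest on how far these libraries differ, and that may be technical variation alone. No group had doxycycline but no transgene among those analysed here.

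ERK is switched on by a chain that runs from growth factor and cytokine receptors through RAS, RAF and MEK. Active ERK drives transcription of its own brakes. Dual-specificity phosphatases (DUSPs) remove the activating phosphates from MAP kinases: DUSP1, DUSP2, DUSP4 and DUSP5 act in the nucleus, and DUSP6 holds and inactivates ERK in the cytoplasm. Sprouty and SPRED proteins act further up, between receptor and RAF, and SPRED proteins bring the RAS GTPase-activating protein neurofibromin to the membrane. In myeloid leukaemia, RAS signalling is a common route to growth, and levels of these brakes are often read as a trace of ERK output.

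Gene counts per library ran from 20394546 to 26041347. Klf4 averaged 3.57 ± 1.21 CPM (counts scaled to a common library depth) for 0h, 151 ± 0.474 for 6h, 113 ± 2.74 for 12h and 77.8 ± 1.34 for 24h (SD, n = 2). All 10 markers of leukaemic myeloid progenitors had counts at every time, with a summed level of 2749 to 2791 CPM at 24h and 3188 to 3200 CPM at 0h. Within that sum, which Ctsg led at 1296 CPM at 24h and 1520 CPM at 0h, markers moved both ways. Cd34, a stem and progenitor cell marker, averaged 116 CPM at 24h and 243 CPM at 0h (edgeR, adjusted p = 5.7e-22), and Fcgr3 averaged 154 CPM at 24h and 235 CPM at 0h (adjusted p = 5.8e-14). Elane was lower at 24h by 0.30 ± 0.05 on the log2 scale and Itgam, a marker of mature myeloid cells, was higher by 0.36 ± 0.06 (adjusted p = 1.1e-06 and adjusted p = 5.1e-06). Among B cell markers, Ms4a1 and Pax5 were at 0 at every time, while Ighm averaged 7.14 CPM at 24h and 12.2 CPM at 0h (adjusted p = 1.7e-06). Cd79b averaged 7.74 CPM at 24h and 11.4 CPM at 0h (adjusted p = 0.00011), and Cd79a averaged 0.821 CPM at 24h and 0.216 CPM at 0h (adjusted p = 0.0021). Of 5 NK cell markers, Ncr1 and Gzma were at 0 at every time, and the sum was 11.4 to 11.5 CPM at 24h and 4.74 to 5.38 CPM at 0h, nearly all of it Nkg7 (11.4 CPM at 24h and 5.01 CPM at 0h, adjusted p = 6.0e-10). Of 7 T cell markers, Cd3e and Cd3g were at 0 at every time, and the sums were 9.41 to 9.58 CPM at 24h and 6.48 to 7.04 CPM at 0h, nearly all of it Lck (9.41 CPM at 24h and 6.63 CPM at 0h, adjusted p = 0.0016). Erythroid, megakaryocyte and endothelial or stromal lists summed to at most 8.24 CPM in any library. The share of fragments outside any counted gene feature was 5.47% ± 0.32 for 0h, 6.21% ± 0.56 for 6h, 8.63% ± 0.45 for 12h and 9.15% ± 0.17 for 24h (SD, n = 2). The part of these shifts in the results for the 9 genes was not tested. In such bulk samples, fewer cells of a type and less RNA per cell cannot be told apart.

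Promoter sequences from RefSeq (build GRCm38.p6, the same assembly as mm10) were matched by symbol for 8 of the 9 genes. Each runs from 250 bases before the annotated start to 50 bases after it, 5′ to 3′ on the gene's strand. Those of 4 genes are shown because they stand for the different courses that follow: Dusp1 and Dusp2, which were higher at 12h and 24h, Dusp5, which was not called at any time, and Dusp6, which was lower from 6h on. Capitals mark letters of the GT box CACCC, the GC box GGGCGG, the CRE core TGACG, the ETS core CCGGAA, the AP-1 motif TGANTCA or the SRE CArG box, on either strand.
Dusp1, chr17:26508423-26508722, minus strand: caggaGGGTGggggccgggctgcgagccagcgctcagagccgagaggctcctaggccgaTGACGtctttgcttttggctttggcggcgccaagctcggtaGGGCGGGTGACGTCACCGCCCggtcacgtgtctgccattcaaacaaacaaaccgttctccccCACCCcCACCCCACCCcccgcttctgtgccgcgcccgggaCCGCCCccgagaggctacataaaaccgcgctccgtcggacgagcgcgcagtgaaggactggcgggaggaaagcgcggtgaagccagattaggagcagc
Dusp2, chr2:127335909-127336208, plus strand: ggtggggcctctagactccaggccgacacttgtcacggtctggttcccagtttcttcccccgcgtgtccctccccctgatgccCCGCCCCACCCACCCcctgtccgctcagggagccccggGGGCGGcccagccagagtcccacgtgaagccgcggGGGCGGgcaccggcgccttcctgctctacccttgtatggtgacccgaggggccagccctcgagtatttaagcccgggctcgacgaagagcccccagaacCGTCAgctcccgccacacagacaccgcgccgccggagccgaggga
Dusp5, chr19:53528895-53529194, plus strand: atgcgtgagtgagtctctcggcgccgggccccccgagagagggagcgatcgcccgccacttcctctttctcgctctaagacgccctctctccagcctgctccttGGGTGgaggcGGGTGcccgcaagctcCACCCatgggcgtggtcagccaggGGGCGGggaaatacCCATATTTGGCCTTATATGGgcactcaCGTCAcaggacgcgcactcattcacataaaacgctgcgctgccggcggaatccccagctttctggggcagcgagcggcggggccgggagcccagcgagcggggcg
Dusp6, chr10:99262981-99263280, plus strand: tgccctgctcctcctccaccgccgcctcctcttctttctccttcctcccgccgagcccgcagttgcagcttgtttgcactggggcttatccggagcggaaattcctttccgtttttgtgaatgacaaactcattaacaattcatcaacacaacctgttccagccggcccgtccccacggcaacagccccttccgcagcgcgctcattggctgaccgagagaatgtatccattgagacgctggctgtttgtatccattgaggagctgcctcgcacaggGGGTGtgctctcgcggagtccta
With the annotated start as position 0 and the first base of each match given, the Dusp1 promoter held CRE cores at -191, -143 and -140, of which the last 2 overlap as the 2 strands of a single palindrome. It also held GT boxes at -245, -146, -88, -82 and -77 and GC boxes at -150, -135 and -48, and the match at -146 shares bases with its neighbours. The Dusp2 promoter held 2 overlapping GT boxes at -161 and -157, GC boxes at -167, -129 and -94, and a CRE core at 5. The Dusp5 promoter held GT boxes at -146, -136 and -120, a GC box at -96 and a CRE core at -55. It was the only promoter of the 8 with an SRE CArG box, the site of serum response factor, with matches at -82 and -72. The Dusp6 promoter held a single match, a GT box at 27. Of the promoters not shown, that of Spred1, which was lower at 12h and 24h, held GC boxes at -110, -7 and 13 and a GT box at -99. Spry1 held a GC box, Spry2 an ETS core, and Spred2 a GC box and a CRE core. GC boxes thus stood in promoters of genes called higher, called lower and not called. Among the promoters of 27025 genes, 59.8% held a GT box, 38.2% a GC box, 23.05% a CRE core and 1.81% a CArG box, so the first 3 are common. None of the 8 promoters held the AP-1 motif, which 8.97% of genes did, and a match is a description of letters, not a site of binding.

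The phosphatase genes moved in both directions, while the Sprouty genes and Spred2 passed no test against 0h. A gene was called at an adjusted p under 0.05 (Benjamini-Hochberg, over 14263 genes) in edgeR's quasi-likelihood test, with all 8 libraries in a single fit. At 6h 1 of the 9 genes was called, Dusp6, lower, where 18.3% of all genes tested were called (9.74% higher, 8.58% lower). No member was called higher at 6h, by edgeR or by DESeq2, also at an unadjusted p under 0.05, where each tool gave 0 genes. At 12h 4 of 9 were called, Dusp1 and Dusp2 higher and Dusp6 and Spred1 lower, against 43.7% of all genes (22.1% higher, 21.6% lower). At 24h 5 of 9 were called, the same 4 in the same directions and Dusp4 higher, against 50.9% of all genes (26.1% higher, 24.8% lower). Dusp4 passed the filter on low counts only through libraries of 12h and 24h, where it was high. Its call and its F test below therefore describe a gene let in by its later level. These shares are near those of all genes, so the number of calls is no result about the group. The median log2 fold change of the 9 genes was -0.15, -0.02 and 0.06 at 6h, 12h and 24h, and that of all genes tested was -0.00363, 0.00176 and 0.02. The comparisons share the 0h libraries. By an F test over the time course, 5 of 9 passed, where 52.8% of all genes did: Dusp1 (adjusted p = 1.7e-12), Dusp6 (6.6e-08), Dusp2 (2.7e-05), Spred1 (0.00061) and Dusp4 (0.010).

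**Figure D1:**
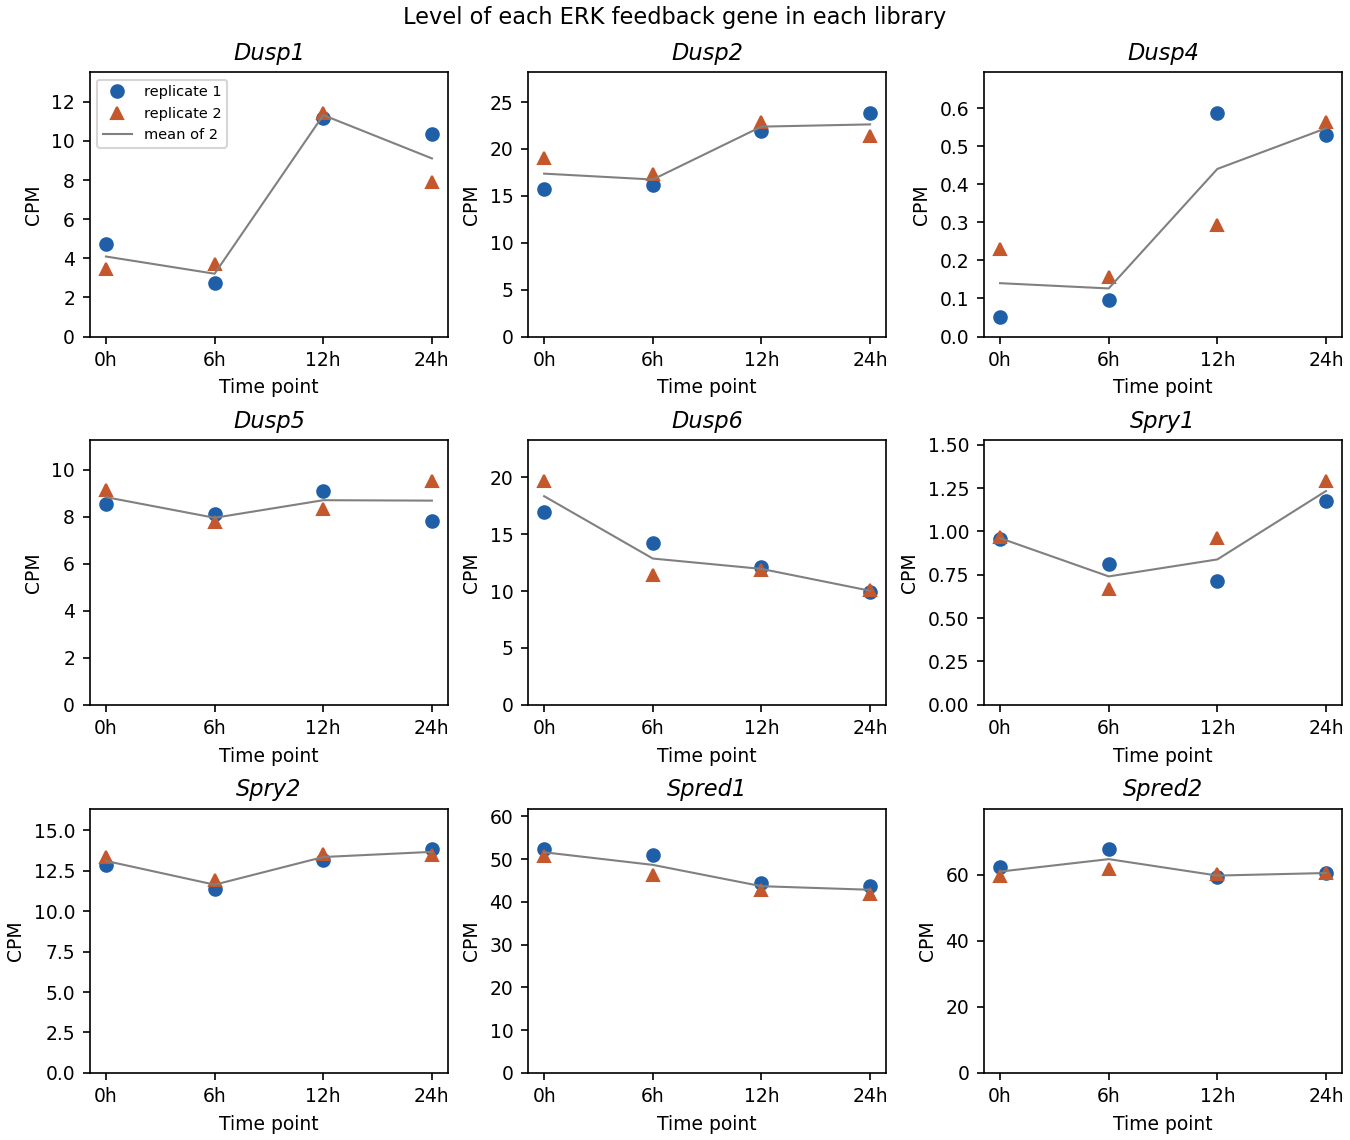
Level of each of the 9 genes in CPM (vertical axis, from 0, own scale per gene) at 0h, 6h, 12h and 24h; circles are replicate 1, triangles replicate 2, and the line joins the means of 2. Dusp1 stands between 7.87 and 11.4 CPM at 12h and 24h, above every 0h and 6h library, and Dusp6 stands between 9.96 and 14.3 CPM at the later times, below both 0h libraries.

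Dusp1 (ENSMUSG00000024190; build mm10, chromosome 17, 26505590 to 26562128, minus strand) encodes the founding nuclear phosphatase of the family, an immediate early gene whose product acts on p38, JNK and ERK. It had 94 and 75 counts in the 0h libraries, 57 and 94 in those of 6h, 266 and 274 in those of 12h, and 273 and 195 in those of 24h. As CPM these were 4.72 and 3.45 CPM in the 0h libraries, 2.72 and 3.70 in those of 6h, 11.2 and 11.4 in those of 12h, and 10.3 and 7.87 in those of 24h. The 6h libraries overlapped those of 0h, and every 12h and 24h library lay above both. Dusp1 averaged 11.3 ± 0.182 CPM at 12h and 4.09 ± 0.899 CPM at 0h (SD, n = 2), 2.78-fold higher, a log2 fold change of 1.48 ± 0.16 (SE) with adjusted p = 1.0e-09. At 24h it was 2.24-fold higher than at 0h (1.17 ± 0.16, adjusted p = 1.5e-07). The step lay between 6h and 12h, at 1.80 ± 0.16 (adjusted p = 8.8e-11). Its level at 24h was below that at 12h in both libraries, but the difference of -0.31 ± 0.13 was not called (adjusted p = 0.16), except without 24h replicate 1, which gave -0.52 (adjusted p = 0.042). Ergic1, on the opposite strand, shares 11 exonic bases with Dusp1, and it was not called at 12h (-0.11 ± 0.05, adjusted p = 0.057).

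Dusp2 (ENSMUSG00000027368; chromosome 2, 127336159 to 127338376, plus strand) encodes a nuclear phosphatase found mainly in blood cells. Its levels were 15.7 and 19.1 CPM in the 0h libraries, 16.2 and 17.3 in those of 6h, 21.9 and 22.9 in those of 12h, and 23.9 and 21.4 in those of 24h. All 12h and 24h libraries lay above all 0h and 6h libraries. The rise was 1.28-fold at 12h (0.36 ± 0.09 on the log2 scale, adjusted p = 0.0013) and 1.3-fold at 24h (0.38 ± 0.09, adjusted p = 0.00056). It too was called from 6h to 12h, at 0.42 ± 0.09 (adjusted p = 0.00087). Without 0h replicate 1 the values against 0h were 0.23 at 12h (adjusted p = 0.089) and 0.24 at 24h (adjusted p = 0.057), and neither was called.

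Dusp4 (ENSMUSG00000031530; chromosome 8, 34807297 to 34819894, plus strand), another nuclear phosphatase gene induced by ERK, was close to the limit of detection. It had 1 and 5 counts in the 0h libraries, 2 and 4 in those of 6h, 14 and 7 in those of 12h, and 14 and 14 in those of 24h. Both 12h and both 24h libraries held more than any earlier library. Dusp4 passed the filter on low counts only through libraries of these later times, so its tests are not independent of that filter. With no filter on low counts, no call of a feedback gene changed. The 28 counts at 24h against 6 at 0h gave a ratio of 3.79 after scaling, with a 95% interval of 1.54 to 11.2 (exact binomial, Clopper-Pearson) that covers counting error only. The fitted log2 fold change at 24h was 1.89 ± 0.65 (adjusted p = 0.014), and 12h was not called (1.58 ± 0.68, adjusted p = 0.058), except without 0h replicate 2 (3.0003, adjusted p = 0.044) or 12h replicate 2 (1.99, adjusted p = 0.045). The 24h call was lost without 0h replicate 1 (1.23, adjusted p = 0.20), without 24h replicate 2 (1.84, adjusted p = 0.064) and with DESeq2 (1.93, adjusted p = 0.13).

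Dusp5 (ENSMUSG00000034765; chromosome 19, 53529109 to 53542431, plus strand) encodes a nuclear phosphatase specific for ERK. It stood at 8.54 and 9.12 CPM in the 0h libraries, 8.11 and 7.79 in those of 6h, 9.09 and 8.31 in those of 12h, and 7.84 and 9.53 in those of 24h. Both 6h libraries lay below those of 0h without a call (-0.15 ± 0.13, adjusted p = 0.45). The 12h and 24h libraries overlapped those of 0h, with differences of -0.02 ± 0.12 and -0.03 ± 0.12 on the log2 scale (adjusted p = 0.90 and adjusted p = 0.86). Of the 16 alternatives that tested against no minimum fold, 0 called it at 24h. An antisense gene on the other strand shares 547 exonic bases with Dusp5, and it was not analysed here.

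Dusp6 (ENSMUSG00000019960; chromosome 10, 99263231 to 99267489, plus strand), the cytoplasmic ERK phosphatase, was lower than at 0h at each later time. Its 24h libraries held 263 and 250 counts and those of 0h held 338 and 428, although the 24h libraries were deeper. The levels were 17.0 and 19.7 CPM in the 0h libraries, 14.3 and 11.4 in those of 6h, 12.1 and 11.8 in those of 12h, and 9.96 and 10.1 in those of 24h. Every later library lay below both 0h libraries. At 6h the difference was -0.53 ± 0.10 on the log2 scale (adjusted p = 0.00024), at 12h -0.62 ± 0.10 (adjusted p = 6.5e-06) and at 24h -0.87 ± 0.11 (adjusted p = 9.3e-09). Dusp6 averaged 10.02 ± 0.0982 CPM at 24h and 18.3 ± 1.92 CPM at 0h (SD, n = 2), and stood 1.83-fold lower. The later steps were not called, at -0.10 ± 0.11 from 6h to 12h and -0.25 ± 0.11 from 12h to 24h (adjusted p = 0.58 and adjusted p = 0.18). All 16 of those alternatives called Dusp6 lower at each time against 0h, with differences of -0.98 to -0.77 at 24h.

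**Figure D2:**
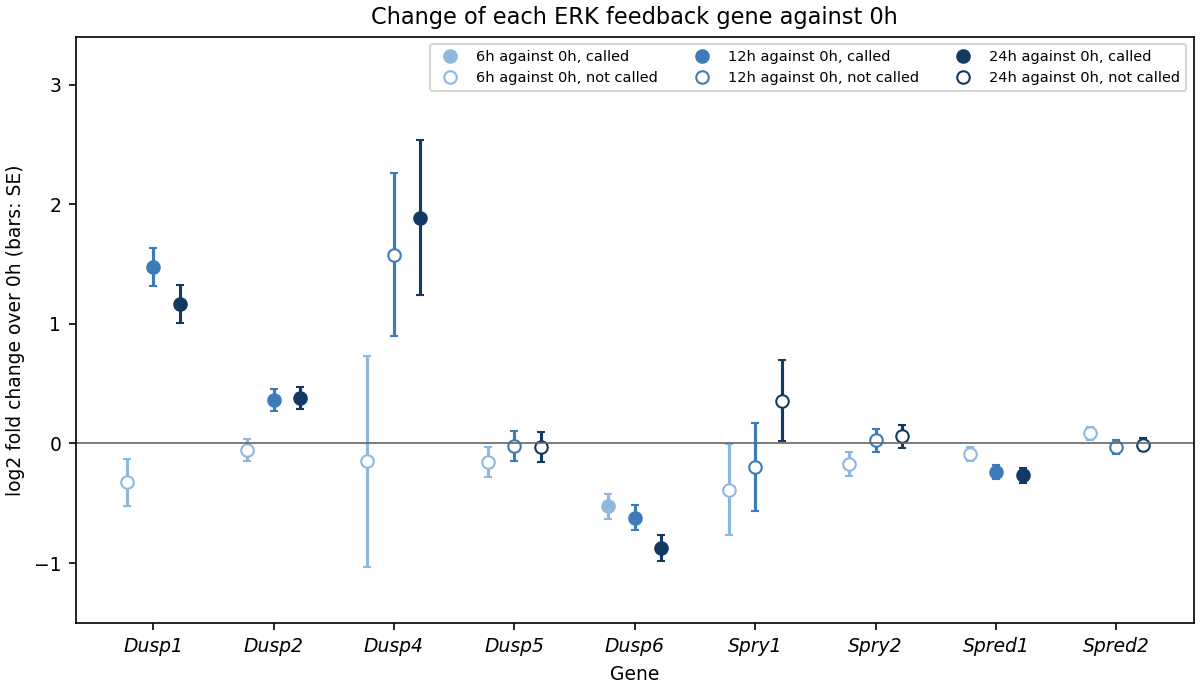
log2 fold change over 0h (vertical axis; bars are the SE of the edgeR fit) of each gene at 6h, 12h and 24h, light to dark; filled points were called at an adjusted p under 0.05, open points were not. Dusp1, Dusp2 and Dusp4 lie above 0 and Dusp6 and Spred1 below 0 at 24h, and the wide bars of Dusp4 and Spry1 go with their low counts.

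Among the upstream brakes, neither Sprouty gene was called in any comparison. Spry2 (ENSMUSG00000022114; chromosome 14, 105891947 to 105896819, minus strand), which binds GRB2 and blunts RAS activation, stood at 12.9 and 13.4 CPM in the 0h libraries, 11.4 and 11.9 in those of 6h, 13.2 and 13.5 in those of 12h, and 13.9 and 13.5 in those of 24h. Both 6h libraries were the lowest, but the difference from 0h of -0.17 ± 0.10 was not called (adjusted p = 0.26), nor was that at 24h of 0.06 ± 0.10 (adjusted p = 0.63). Spry1 (ENSMUSG00000037211; chromosome 3, 37639947 to 37644598, plus strand) was low, with 17 to 32 counts in a library. It averaged 0.961 ± 0.00849, 0.740 ± 0.101, 0.838 ± 0.174 and 1.23 ± 0.0839 CPM from 0h to 24h (SD, n = 2). Both 24h libraries were the highest, and the difference from 0h of 0.36 ± 0.34 was not called (adjusted p = 0.40). At these counts a change of the size seen for Dusp2 was not detectable for Spry1.

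Spred1 (ENSMUSG00000027351; chromosome 2, 117121374 to 117182279, plus strand), the gene mutated in Legius syndrome, fell by a small amount. Its levels were 52.4 and 50.8 CPM in the 0h libraries, 50.9 and 46.3 in those of 6h, 44.5 and 42.8 in those of 12h, and 43.8 and 41.8 in those of 24h. The 12h and 24h libraries all lay below those of 0h and 6h. The log2 fold change was -0.24 ± 0.06 at 12h (adjusted p = 0.0015) and -0.27 ± 0.06 at 24h (adjusted p = 0.00035), a level 1.20-fold lower at 24h. Spred2 (ENSMUSG00000045671; chromosome 11, 19924375 to 20024026, plus strand), its close relative, had 62.2 and 59.6 CPM in the 0h libraries, 67.8 and 61.6 in those of 6h, 59.2 and 60.2 in those of 12h, and 60.6 and 60.4 in those of 24h. It differed from 0h by 0.08 ± 0.06, -0.03 ± 0.06 and -0.00971 ± 0.06 at 6h, 12h and 24h, with adjusted p = 0.33, 0.72 and 0.90. Whether Spred1 and Spred2 differed from each other in their change was not tested.

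From 12h to 24h, 0 of the 9 genes were called by edgeR or by DESeq2, where edgeR called 6.46% of all genes (3.41% higher, 3.04% lower). At an unadjusted p under 0.05 edgeR gave 2 genes, Dusp1 and Dusp6, both lower, and DESeq2 gave 0. From 6h to 12h Dusp1 and Dusp2 were called higher and 0 lower, where 20.7% of all genes were called (10.9% higher, 9.79% lower). Without 6h replicate 2, Spred1 (-0.22, adjusted p = 0.025) and Spred2 (-0.18, adjusted p = 0.045) were called lower, and so was Spred1 with a GC and length correction (-0.16, adjusted p = 0.037). For the lower direction, edgeR gave 2 genes at an unadjusted p under 0.05, Spred1 and Spred2, and DESeq2 gave 0. Against 0h, Dusp6 was called by 6h, and Dusp1, Dusp2 and Spred1 were first called at 12h.

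Levels of different genes were compared per length, as CPM divided by kilobases of exon. At 0h Spred2 was the highest, at 13.2 ± 0.404 CPM per kb (SD, n = 2), followed by Dusp2 at 8.67 ± 1.19, Spred1 at 7.603 ± 0.165, Spry2 at 6.28 ± 0.165, Dusp6 at 5.86 ± 0.614, Dusp5 at 3.57 ± 0.164, Dusp1 at 1.23 ± 0.271, Spry1 at 0.331 ± 0.00292 and Dusp4 at 0.0512 ± 0.0464. Of these neighbours only Spry2 and Dusp6 had libraries that overlapped at 0h. At 24h the order was Spred2 (13.1 ± 0.0308), Dusp2 (11.3 ± 0.892), Spry2 (6.55 ± 0.125), Spred1 (6.31 ± 0.205), Dusp5 (3.51 ± 0.484), Dusp6 (3.20 ± 0.0314), Dusp1 (2.75 ± 0.525), Spry1 (0.424 ± 0.0289) and Dusp4 (0.200 ± 0.00912). There the libraries of Dusp5 and Dusp6 overlapped, and those of Dusp6 and Dusp1 were close, 3.18 to 3.22 against 2.38 to 3.12 CPM per kb. The GENCODE gene Dusp1 runs to base 26562128, far past the promoter stretch shown above, which ends at 26508722. Its 3311 exonic bases include some upstream of that promoter, so its level per kb and its place in the order may be too low.

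The make-up of the phosphatase transcripts differed between time points. The 5 DUSP genes summed to 18.2 and 20.6 CPM per kb in the 0h libraries, 16.8 and 16.6 in those of 6h, 22.1 and 22.1 in those of 12h, and 21.6 and 20.3 in those of 24h. Dusp6 made up 29.9% and 30.5% of that sum in the 0h libraries, 27.2% and 21.99% in those of 6h, 17.5% and 17.1% in those of 12h, and 14.7% and 15.9% in those of 24h. Dusp1 made up 7.86% and 5.06% in the 0h libraries, 4.90% and 6.72% in those of 6h, 15.3% and 15.6% in those of 12h, and 14.5% and 11.7% in those of 24h. Dusp2 was the largest share of that sum throughout, from 43.1% in a 0h library to 55.2% in a 24h library. Dusp7, outside the sum, averaged 9.44 CPM per kb at 0h and 8.54 at 24h, where Dusp2 averaged 8.67 and 11.3. With the 2 other cytoplasmic ERK phosphatase genes, Dusp7 and Dusp9, taken beside Dusp6, the 4 nuclear genes stood to the 3 cytoplasmic genes in a ratio of 0.727 and 0.734 in the 0h libraries, 0.777 and 0.821 in those of 6h, 1.29 and 1.22 in those of 12h, and 1.31 and 1.296 in those of 24h. These are sums of transcripts over genes grouped by where their proteins act, given as a description with no test. The length taken for Dusp1 enters its share and this ratio, which may be too low for the same reason.

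**Figure D3:**
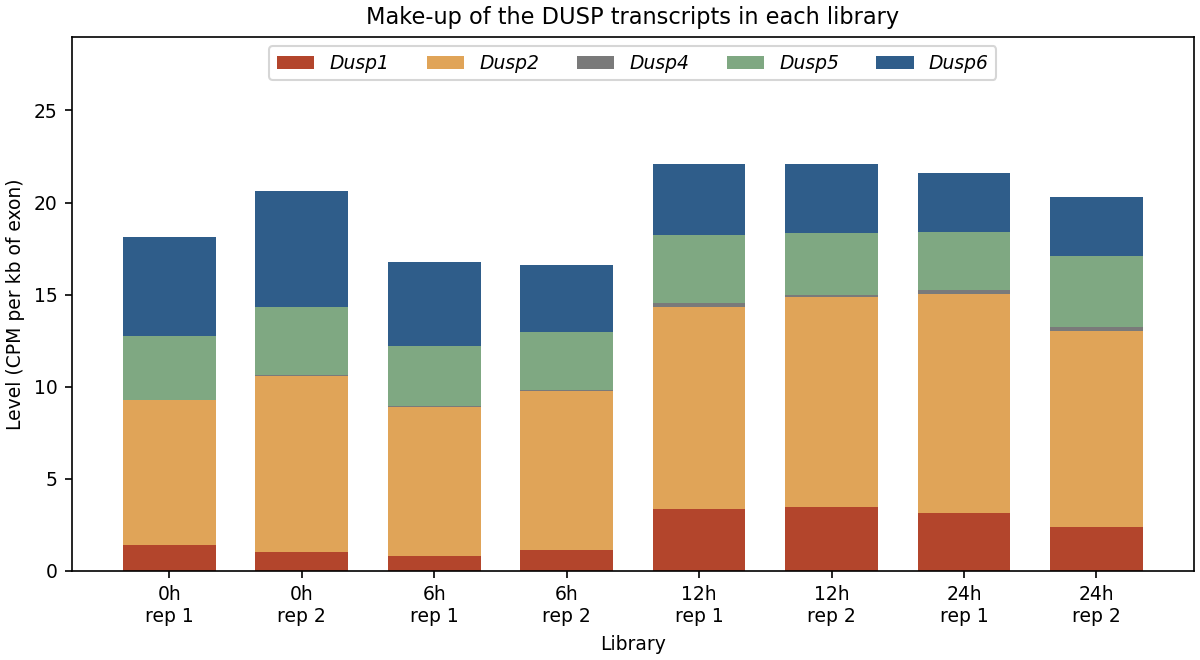
Stacked level of the 5 DUSP genes in each of the 8 libraries, in CPM per kilobase of exon (vertical axis, from 0). The Dusp6 segment shrinks to 14.7% and 15.9% of the stack at 24h, against 29.9% and 30.5% at 0h, and the Dusp1 segment widens at 12h and 24h.

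The other MAP kinase phosphatase genes give a setting for these changes. Of 5, 4 were tested, and at 24h 1 was higher, 1 lower and 2 not called, against 50.9% of all genes called. Dusp9, a cytoplasmic ERK phosphatase like Dusp6, had 7.54 and 9.99 CPM in the 0h libraries, 7.02 and 7.55 in those of 6h, 6.10 and 5.52 in those of 12h, and 5.30 and 5.05 in those of 24h. Its difference from 0h was -0.60 ± 0.14 at 12h (adjusted p = 0.00071) and -0.77 ± 0.14 at 24h (adjusted p = 2.7e-05). Dusp7, the remaining member of that subfamily, averaged 28.7 CPM at 24h and 31.7 CPM at 0h and was not called (-0.14 ± 0.08, adjusted p = 0.11). Dusp10, whose product prefers p38 and JNK, was higher at 24h by 0.96 ± 0.28 (adjusted p = 0.0049), from 110 counts at 24h against 46 at 0h. Dusp16, of the same preference, was not called (0.11 ± 0.21, adjusted p = 0.68), and Dusp8 had at most 2 counts in a library.

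Of the other Sprouty and SPRED genes, Spred3 alone had enough counts to be tested. It stood at 2.92 and 2.21 CPM in the 0h libraries, 3.20 and 2.71 in those of 6h, 5.34 and 5.39 in those of 12h, and 6.17 and 5.45 in those of 24h. All 12h and 24h libraries lay above the earlier ones, and the log2 fold change was 1.07 ± 0.18 at 12h (adjusted p = 1.2e-05) and 1.19 ± 0.18 at 24h (adjusted p = 9.5e-07). Per length Spred3 was minor beside its relatives, at 0.992 and 0.877 CPM per kb at 24h. Spry4 had 0 to 6 counts in a library. Spry3 had 0 counts in all 8 libraries, which allows up to 3 counts for counting error only. Over library totals without TMM scaling, unlike the other CPM here, that is 0.115 to 0.147 CPM depending on the library.

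Genes on which the brakes act, and genes listed as ERK outputs, were taken from lists that name them by role. Of 14 RAS GTPase-activating proteins and other brakes, all tested, 6 were higher, 5 lower and 3 not called at 24h, beside 26.1% of all genes higher and 24.8% lower. Their median log2 fold change was 0.10, where that of all genes was 0.02. Nf1, which encodes the neurofibromin that SPRED proteins recruit, had 47.1 and 45.8 CPM at 24h, against 27.6 and 26.2 CPM at 0h, and was called at each time (0.79 ± 0.07 at 24h, adjusted p = 7.6e-12). Dab2ip and Rasa3, both RAS GTPase-activating proteins, were higher at 24h by 0.55 ± 0.06 and 0.41 ± 0.04 (adjusted p = 8.9e-10 and adjusted p = 1.3e-09). Pebp1, the RAF kinase inhibitor protein, was lower by 0.32 ± 0.04, at 339 CPM at 24h and 425 CPM at 0h (adjusted p = 5.8e-08).

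In the core cascade, the called genes named here differed by under 0.4 on the log2 scale. Of 12 genes from RAS to ERK, all tested, 6 were higher, 1 lower and 5 not called at 24h, with a median of 0.09. The shares to set beside this count and those of the adaptors and receptors are the same 26.1% of all genes higher and 24.8% lower. Ksr1 and Braf were higher by 0.37 ± 0.08 and 0.28 ± 0.06, and Hras was lower by 0.39 ± 0.06 (adjusted p from 5.8e-07 for Hras to 0.00018 for Braf). Of 11 tested adaptors and RAS activators out of 13, 5 were higher and 2 lower. The largest change among those named was in Rasgrp2, an exchange factor known for RAP activation, at 276 CPM at 24h and 151 CPM at 0h (0.87 ± 0.04, adjusted p = 2.1e-19). The RAS exchange factor gene Sos1 and the adaptor gene Gab2 rose by 0.49 ± 0.06 and 0.21 ± 0.05 (adjusted p = 5.2e-08 and adjusted p = 0.00084), and Vav1 was lower by 0.26 ± 0.04 (adjusted p = 5.0e-06). Of 9 tested receptors out of 10, 2 were higher and 2 lower. Those higher were Csf2ra (0.45 ± 0.05, adjusted p = 1.6e-10) and Csf3r (0.45 ± 0.09, adjusted p = 9.7e-05), of the GM-CSF and G-CSF receptors. Csf2rb, the shared beta chain, and Kit, the stem cell factor receptor, were lower by 0.35 ± 0.04 and 0.23 ± 0.05 (adjusted p = 3.8e-09 and adjusted p = 0.00018).

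Genes listed as ERK outputs also moved in both directions. The list holds Srf, Elk1, Elk3 and Elk4 too, genes of factors through which ERK acts, so its counts are not of ERK-induced genes alone. Of 23 genes, 19 were tested, and 11 were higher, 3 lower and 5 not called at 24h, with a median of 0.52. Of all genes, 26.1% were higher and 24.8% lower, with a median of 0.02, and no test of the list was made. Those named by rank were the early response genes Egr1, at 22.1 and 24.95 CPM at 24h against 0.553 and 0.368 at 0h (5.67 ± 0.19, adjusted p = 6.3e-24), Jun (4.14 ± 0.14), Ier2 (1.03 ± 0.05) and Junb (0.77 ± 0.05). Egr1 was not called at 6h (-0.01 ± 0.47, adjusted p = 0.99), and Dusp1 was not either. Of the 19 tested genes, 6 were higher and 2 lower at 6h, beside 9.74% of all genes higher and 8.58% lower. Jun averaged 2.83 CPM at 6h and 1.44 CPM at 0h, Junb 77.7 and 57.1 CPM, and Ier2 91.5 and 73.9 CPM. The 3 lower genes, named after their values were seen, were Etv5, Etv4 and Srf. Etv5 and Etv4 encode ETS factors that, like Dusp6, respond to sustained ERK activity. Etv5 stood at 10.8 and 11.0 CPM in the 0h libraries, 10.7 and 7.20 in those of 6h, 5.55 and 5.97 in those of 12h, and 5.11 and 4.93 in those of 24h, a difference of -0.92 ± 0.14 at 12h (adjusted p = 2.5e-06) and -1.12 ± 0.15 at 24h (adjusted p = 5.1e-08). Etv4 had 2.23 and 3.07 CPM at 24h, against 4.07 and 3.96 CPM at 0h (-0.60 ± 0.19, adjusted p = 0.0089). Srf, the gene of serum response factor, was lower by 0.21 ± 0.04 (adjusted p = 4.6e-05). Not every ERK-responsive gene outside the early response set was lower. Epha2, also named after its values were seen, was higher at 24h by 2.11 ± 0.36 from few counts (adjusted p = 6.6e-06). Of the same list and named likewise, Fosl1 had 5.38 and 6.22 CPM at 24h against 3.22 and 3.59 CPM at 0h. Fosl2 had 63.5 and 61.8 CPM at 24h against 50.7 and 50.4 CPM at 0h.

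**Figure D4:**
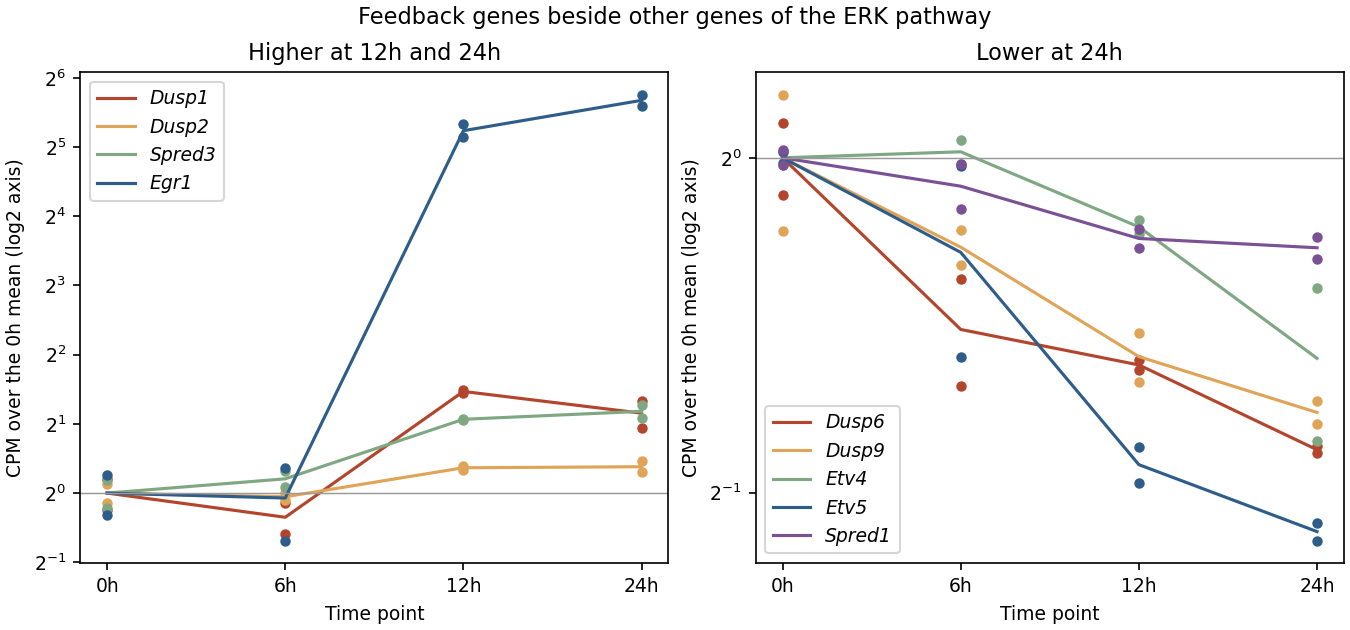
Level relative to the mean of the 0h libraries (vertical axes, log2 scale, CPM over the 0h mean) at 0h, 6h, 12h and 24h; points are libraries and lines join the means of 2. On the left Dusp1, Dusp2 and Spred3 are above 0h at 12h and 24h beside Egr1, whose change is far larger. On the right Dusp6 was called lower than 0h by 6h, Dusp9, Etv5 and Spred1 by 12h, and Etv4 at 24h. Genes were placed in the panels by their course, Etv4 and Etv5 after their values were seen. Members that were not called and other output genes that rose, such as Jun, are not shown.

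Genes with the pattern most like each member were sought among 8833 tested genes, by the root mean square difference over the 8 libraries between log2 levels centred on each gene's own mean. Closest to Dusp1 was Klf2, a KLF family transcription factor gene, at a difference of 0.16, then Mroh2a at 0.29. Klf2 differed from 0h by -0.15, 1.60 and 1.305 at 6h, 12h and 24h, where Dusp1 gave -0.32, 1.48 and 1.17. Closest to Dusp6 were Rgs2, a regulator of G protein signalling, at 0.09, and Egln3, an oxygen-sensing prolyl hydroxylase gene, at 0.11. Rgs2 stood at -0.46, -0.57 and -0.78 against 0h, and Egln3 at -0.47, -0.68 and -0.89. For Dusp2 the nearest were Spsb2 (0.06) and Mex3d (0.07), and for Spred1 Impad1 (0.02) and Actr2 (0.02). The nearest to Dusp4 were Mroh2a and Slc7a7, both at a wide distance (0.39 and 0.40), and Dusp4 had few counts.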

How the data were processed

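RNA from 8 libraries of sorted leukaemia cells was sequenced, 2 at each of 0h, 6h, 12h and 24h, after RNeasy purification and TruSeq library preparation per the labels' protocols. The authors deposited raw counts per Ensembl gene, 1 file per library, without normalization. The submitters' processing notes name STAR, SAMtools 1.3, HTSeq 2.0.3 and build mm10. Neither the annotation release nor the strand setting is given in the sources used here, so reads of a gene and an antisense partner cannot be told apart with certainty. The 5 summary rows that name no gene were left out, those for no feature and for ambiguous fragments holding 5.47% and 5.47% of fragments at 0h.

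IDs were named with GENCODE mouse release M21 (46574 matched, 495 not). edgeR 4.0.16 in R 4.3.3 kept 14263 genes with filterByExpr and used TMM scaling, and 1 quasi-likelihood fit took in all 8 libraries, with time point as the factor. Tests were two-sided with Benjamini-Hochberg adjustment, and genes were called at an adjusted p under 0.05. The SE is the absolute log2 fold change over the square root of F. CPM use TMM-scaled library sizes. Lengths are the union of annotated exons. The fits were also run on simulated data with a fixed spread, changed only in genes with more counts than Dusp4 or Spry1. That run says nothing about such low counts, and no result here rests on it.

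The 9 genes and the lists were chosen with earlier results of these data known. Named besides the 9 were, per list, up to 4 genes called at 24h with the smallest adjusted p, both other phosphatase and Sprouty or SPRED lists in full, and the 2 genes most like each member that passed the time course test, sought where the mean log2 CPM was 3 or more, leaving out predicted models (Gm and Rik names). Some results that this rule or the marker lists would name are not reported here. Alternatives were DESeq2 1.42.0, other scaling, other filters, the 4 libraries alone, a replicate block, a fold of 1.5, leaving out each library, and a GC and length correction chosen after the data were seen.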

Additional observations from a re-analysis of the deposited data

Results flagged for a closer look

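Fragments counted to no gene feature, which no comparison here uses, made up 9.15% of all fragments at 24h and 5.47% at 0h, which stands above the level of the 0h libraries. Their part in the values of the feedback genes was not tested.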

How the results depend on the processing

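Across 749 values of single feedback genes under the alternatives, 730 kept their side of the threshold and, where called, their direction, 13 lost a call, 6 gained a call, and 0 called values changed sign. Most of these values had no call to lose. In the main fit 8, 5 and 4 of the 9 genes were not called at 6h, 12h and 24h against 0h. From 6h to 12h 7 were not called, and from 12h to 24h 9 were not. Tested against a fold of 1.5, 0, 1 and 2 of the 9 genes were called at 6h, 12h and 24h (Dusp1 at both later times and Dusp6 at 24h), where 213, 600 and 953 of all genes were. With DESeq2, 1558 genes were called at 6h, against 2613. Leaving out a library gave 1, 3 to 5 and 3 to 5 of the 9 genes at 6h, 12h and 24h, with 3 at 24h without 0h replicate 1, and 1319 to 2715, 4627 to 6627 and 5722 to 7589 of all genes. The 6h count of all genes came to 1702 with 0h replicate 1 left out and to 1319 with 0h replicate 2 left out. A library left alone at its time was assumed to vary like the others. Library totals without TMM made 69.9%, 65.4% and 62.8% of the calls at 6h, 12h and 24h higher ones, against 53.2%, 50.6% and 51.3%, and changed the call of none of the 9 genes. With the replicate number as a block the counts were 1, 4 and 5 of the 9 genes and 2495, 6116 and 7160 of all genes, and no call of a feedback gene changed. Same-numbered libraries had deviations that correlated across 10210 genes from -0.12 to 0.16. With 2 libraries per time point this cannot show whether same-numbered libraries share a source. Counts of under 40 per library for Dusp4 and Spry1 limit what their values can show.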

Other observations

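The MAP kinases on which DUSP1 and DUSP10 act, and the kinases that ERK activates, were also measured. Of 10 genes of the p38 and JNK branches, 9 were tested, and at 24h 2 were higher, 2 lower and 5 not called, with a median log2 fold change of 0.06. That share of calls is near the 50.9% of all genes called at 24h. Mapk13, a p38 gene of low level, averaged 2.09 CPM at 24h and 0.691 CPM at 0h (1.58 ± 0.33, adjusted p = 0.00014), and the JNK gene Mapk9 was higher by 0.28 ± 0.06 (adjusted p = 0.00012). The kinase genes Map2k4 and Map2k3, which act above JNK and p38, were lower by 0.19 ± 0.05 and 0.14 ± 0.05 (adjusted p = 0.0019 and adjusted p = 0.012). Of 7 kinase genes downstream of ERK and p38, 3 were higher, 1 lower and 3 not called at 24h, beside 26.1% of all genes higher and 24.8% lower. Rps6ka3, which encodes the ribosomal S6 kinase RSK2, averaged 80.8 CPM at 24h and 56.7 CPM at 0h (0.51 ± 0.06, adjusted p = 1.9e-09), while its relative Rps6ka1 averaged 345 CPM at 24h and 429 CPM at 0h (-0.31 ± 0.04, adjusted p = 6.4e-08). Mknk1 and Rps6ka5 were higher by 0.21 ± 0.05 and 0.20 ± 0.08 (adjusted p = 0.0014 and adjusted p = 0.029).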
